A study of Mus musculus with 6 samples.

Results

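Zbp1, Slfn5 and Tgtp2 are interferon-linked genes whose transcripts were lower in mouse microglia lacking Nus1, in libraries where most other interferon-linked genes were higher. They were selected on their lower read counts in the cKO libraries of this same table, then taken by symbol, and all 3 were found among the 4656 genes of the deposited table. Their own differences between the genotypes are therefore given as a description, with no test. RNA of primary microglia, the macrophages that reside in the brain, was sequenced in 6 libraries. The control group (Ctrl) was 3 libraries from Nus1fl/fl mice, in which the gene is flanked by sites for Cre recombination, and the other group was 3 libraries of genotype Nus1cKO (cKO), the conditional knockout. The labels' protocols describe tamoxifen, which switches on inducible Cre recombinases, injected into the peritoneum at 100 mg/kg on each of 5 days starting at postnatal day 28, and microglia sorted from perfused brains 30 days after the last dose. The labels do not give the Cre driver or say whether the Ctrl mice carried a Cre, and they also describe keeping primary microglia in serum-containing medium without saying if the sequenced cells were cultured.

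Interferons are secreted proteins that warn cells of infection. Their receptors signal through kinases of the Jak family to transcription factors, Irf9 among them, that bind a short DNA element, the interferon-stimulated response element, near the start of many target genes; interferon-gamma also acts through another, the gamma-activated site. Microglia express these receptors and switch on the targets in infection, injury and ageing. Zbp1 encodes a sensor of left-handed (Z-form) nucleic acid that can start necroptosis and inflammatory signalling through the kinase Ripk3. Slfn5 belongs to the Schlafen family, and in human cells its nuclear protein has been described as a restriction factor for herpesvirus. Tgtp2 and its near-identical copy Tgtp1 encode T-cell-specific guanine nucleotide triphosphate-binding proteins, immunity-related GTPases that gather on the vacuoles of intracellular parasites.

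The DNA before the starts of Tgtp2, Tgtp1 and Slfn5 is shown because it holds the letters through which many genes that were higher in cKO are thought to respond to interferon. Promoter windows from 250 bases before to 50 bases after the annotated start came from RefSeq (GRCm38.p6, an older build than the mm39 of the deposited coordinates) and matched Slfn5, Tgtp2 and Tgtp1 by gene symbol. Zbp1, Iigp1 and Gm4951 were not matched, so their promoters were not analysed here. The windows are chr11:49064163-49064462 (minus strand) for Tgtp2, chr11:48992197-48992496 (minus strand) for Tgtp1 and chr11:82951852-82952151 (plus strand) for Slfn5. Each is written 5′ to 3′ in the direction of the gene, and capitals mark matches to the core of the response element, searched as GAAA, any 2 bases, GAAA.
Tgtp2: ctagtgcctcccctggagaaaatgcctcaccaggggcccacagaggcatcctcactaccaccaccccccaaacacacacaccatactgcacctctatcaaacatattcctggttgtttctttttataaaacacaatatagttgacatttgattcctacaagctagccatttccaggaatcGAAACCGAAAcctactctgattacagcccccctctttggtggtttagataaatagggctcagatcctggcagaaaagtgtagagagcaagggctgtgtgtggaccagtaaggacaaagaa
Tgtp1: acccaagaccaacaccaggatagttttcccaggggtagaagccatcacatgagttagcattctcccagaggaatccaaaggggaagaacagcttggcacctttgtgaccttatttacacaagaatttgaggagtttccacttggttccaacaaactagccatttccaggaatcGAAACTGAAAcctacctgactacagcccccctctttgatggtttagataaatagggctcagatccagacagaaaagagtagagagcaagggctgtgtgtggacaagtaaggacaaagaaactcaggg
Slfn5: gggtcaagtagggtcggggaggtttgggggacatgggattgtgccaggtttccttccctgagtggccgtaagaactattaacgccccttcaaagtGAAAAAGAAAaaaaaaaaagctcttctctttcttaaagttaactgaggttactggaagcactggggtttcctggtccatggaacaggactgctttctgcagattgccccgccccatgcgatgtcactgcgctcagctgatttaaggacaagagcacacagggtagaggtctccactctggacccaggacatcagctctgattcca
The match began 70 bases before the start of Tgtp2, 77 before that of Tgtp1 and 155 before that of Slfn5, where it ran into a stretch of A. Searched on both strands, the 10-letter core was present in 3.44% of all 32851 promoter windows and in 3.99% of the 27025 genes that have one. Of the interferon-stimulated genes described below that were higher in cKO, 34 had a window and 15 of these (44.1%) held it. The 9-letter core of the gamma-activated site, TTCNNNGAA, was found 81 bases before the start of Tgtp2 and 88 before that of Tgtp1, as TTCCAGGAA in each, and in 8.30% of all windows; Slfn5 had no match to it. A match describes letters and does not show that a factor was bound.

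Short stretches around the core let the members be set beside relatives and interferon-stimulated genes that were higher in cKO. All are from the same windows, read in the direction in which the core matched, with 10 bases on either side and the core in capitals; Isg15 has overlapping cores on either side of the one shown.
Tgtp2 (lower in cKO): tccaggaatcGAAACCGAAAcctactctga
Slfn5 (lower in cKO): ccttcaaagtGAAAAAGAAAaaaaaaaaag
Irgm2 (higher in cKO): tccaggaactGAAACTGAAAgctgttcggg
Igtp (higher in cKO): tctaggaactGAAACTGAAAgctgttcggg
Slfn9 (higher in cKO): ttgtttttggGAAAACGAAActgctcggat
Isg15 (higher in cKO): gtaggaaaagGAAACCGAAAcagaaaatag
Oas3 (higher in cKO): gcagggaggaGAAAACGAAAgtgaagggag
The core of Tgtp2 had the same 10 letters as the core shown for Isg15, although Tgtp2 was lower and Isg15 higher in cKO. Among Slfn2, Slfn3 and Slfn4, relatives of Slfn5 that rose, no window held the core. Slfn8, a relative that rose as well, had 2 matches over its 2 windows.

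The table held between 10786150 and 11033144 reads per library. It lists 4656 genes, those that the authors' deposited table calls at q under 0.05 out of 15835 tested, so a gene without a row has no value here and these sums are part of each library. Nus1, the targeted gene, had 59.4, 60.9 and 59.2 TPM in Ctrl against 14.1, 13.6 and 13.8 TPM in cKO. TPM is a level scaled to gene length and library size. The titles call the libraries biological replicates without naming the animals or pools behind them, and libraries of 1 group differed by 1.31 to 2.17 times the variance that counting alone gives, so spread and p-values measure the differences among these samples.

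Zbp1 (ENSMUSG00000027514, chromosome 2, 173048405 to 173060715, minus strand, mm39) was at 4.74 ± 1.93 TPM in Ctrl and 2.76 ± 1.14 TPM in cKO (SD, n = 3 each). The deposited read counts were 59, 32 and 56 in Ctrl against 29, 35 and 15 in cKO. The groups overlapped: Ctrl replicate 2 held fewer reads than cKO replicate 2, and cKO replicate 3 was the lowest of all. In TPM the overlap was wider, with Ctrl replicate 2 (2.55) below both cKO replicate 1 (2.84) and cKO replicate 2 (3.86). Counting alone gave an exact Poisson 95% interval of 21.9 to 45.2 reads for Ctrl replicate 2, of 24.4 to 48.7 for cKO replicate 2 and of 8.40 to 24.7 for cKO replicate 3. Scaled between libraries by the authors, the mean fell from 49.4 ± 14.8 to 26.0 ± 10.1 normalized reads, a ratio of 0.526. The log2 fold change of cKO over Ctrl from edgeR was -0.88 ± 0.25 (SE). Only 26.3 reads per cKO library stood behind that value on average, and the coefficient of variation within groups was 29.96% in Ctrl and 38.8% in cKO, beside 14.3% and 19.5% from counting alone.

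The FPKM and TPM values of Zbp1 also rested on an estimate of transcript length that moved between libraries. FPKM divides reads by length and depth, so that after scaling for depth the reads behind 1 FPKM should be alike in every library. For Zbp1, which has 2 transcripts in the table, the highest library, Ctrl replicate 2, had 1.38 times the reads per FPKM of the lowest. That ratio had a median of 1.01 over 4425 rows with at least 1 FPKM and 10 reads in every library, was 1.01 for Slfn5 and 1.02 for Tgtp2, and was as high as for Zbp1 in 4 rows, Zbp1 included. Ctrl replicate 2 was accordingly further below the other Ctrl libraries in FPKM (1.70 beside 3.62 and 4.04) than in reads. No word of 50 bases in the Zbp1 transcript occurred in a transcript of another gene (GENCODE M21, GRCm38).

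Slfn5 (ENSMUSG00000054404, chromosome 11, 82842175 to 82855681, plus strand, mm39) had the highest TPM of the members and the smallest difference. Its levels were 6.25, 4.97 and 5.66 TPM in Ctrl against 4.66, 4.05 and 3.86 TPM in cKO. Every cKO library lay below every Ctrl library, with a gap between 4.66 and 4.97 TPM at the edge. The means were 365 ± 39.1 and 268 ± 27.9 normalized reads (SD, n = 3 each), a ratio of 0.734, and the log2 fold change was -0.40 ± 0.08 (SE). Of the 50-base words in its longest transcript, 11.8% also occurred in transcripts of another gene on either strand, the largest part (7.88% of the words) in the antisense gene Slfn5os. No source used here says whether reads were counted by strand, so reads of Slfn5 and Slfn5os cannot be told apart over that stretch.

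Tgtp2 (ENSMUSG00000078921, chromosome 11, 48948023 to 48955039, minus strand, mm39) was the least abundant member and differed most. It had 1.78, 1.32 and 1.65 TPM in Ctrl against 0.75, 0.63 and 0.35 TPM in cKO. The groups were well apart, with the lowest Ctrl library at 37.5 and the highest cKO library at 20.9 normalized reads. The means were 44.7 ± 6.60 and 16.1 ± 5.69 normalized reads (SD, n = 3 each), a ratio of 0.361, and the log2 fold change was -1.42 ± 0.26 (SE). Counting error was large at this depth: the 10 reads of cKO replicate 3 had an exact Poisson 95% interval of 4.80 to 18.4. Non-overlap of the groups was common in the table, where all cKO libraries lay below all Ctrl libraries in 53.2% of the 4641 genes tested and above them in 46.2%, so nothing is read from it.

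The reads assigned to Tgtp2 could not be told from those of Tgtp1 over most of the gene. Of the 100-base words in the Tgtp2 transcript, 80.4% also occurred in that of Tgtp1, and of the 50-base words 89.8%. Part of the Tgtp2 reads were estimated rather than whole, with 49.53 in Ctrl replicate 1 and 17.68 in cKO replicate 2. Tgtp1 had no row, so its level and change are not known here, and a shift of reads between the copies was not tested.

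**Figure D1:**
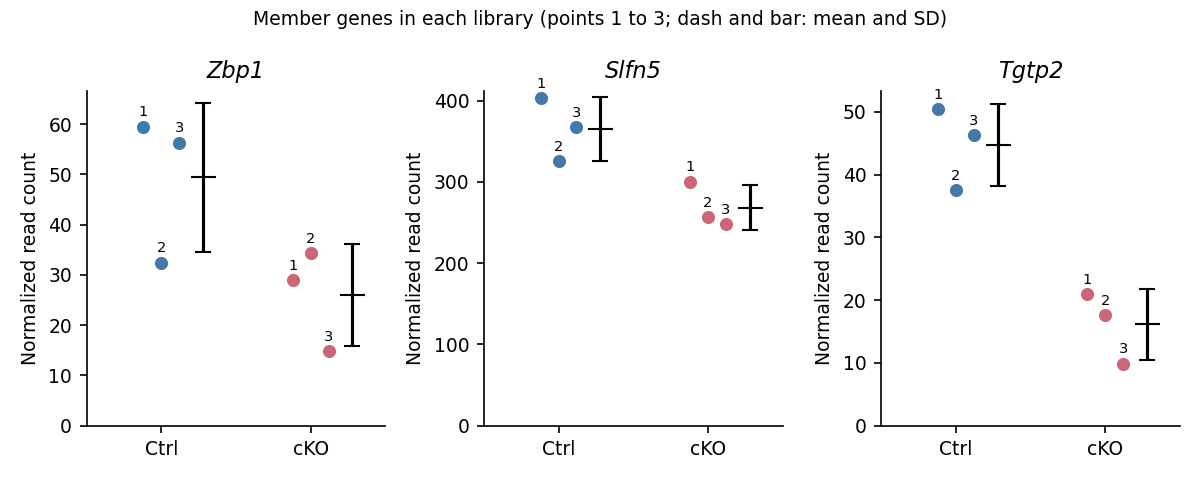
Normalized read count (y axis, from 0, authors' scaling) of each member in the Ctrl and cKO libraries; numbers beside points are replicates, and the dash and bar give mean and SD of 3 libraries. Slfn5 and Tgtp2 do not overlap between the groups, while Zbp1 in Ctrl replicate 2 (32.4) lies below cKO replicate 2 (34.3).

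Within the table the members were lowly expressed and, apart from Slfn5, strongly changed. By mean TPM in Ctrl, 9.48% of the 4641 tested genes were below Zbp1, 10.7% below Slfn5 and 3.90% below Tgtp2, beside a median of 38.2 TPM. Of the 2486 genes with a log2 fold change under 0, whose median was -0.20, Tgtp2 ranked 7 from the lowest, Zbp1 36 and Slfn5 250. Rows were kept on the authors' q-value, so a gene with few reads needed a large change to be listed. The members were also selected as lower, so these ranks are a description. Lower values were common: the authors' deposited table calls 15.7% of the genes tested lower and 13.7% higher, and among the deposited rows edgeR called 50.2% lower and 46.4% higher at an adjusted p under 0.05. Higher genes were thus 48.0% of the edgeR calls, and 58.9% of those of DESeq2. The members were selected as interferon-linked genes below 0, and other list genes below 0 were not among them. Slfn5 at -0.40 was the member nearest to 0. Among the interferon-related lists described below, the nucleotide hydrolase Samhd1 at 0.17 was the nearest gene above 0. Below 0, Pgam5 (-0.12) and Myd88 (-0.30), named after their values were seen, lay nearer to it than Slfn5.

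A list of interferon-stimulated genes rose in cKO where the members were lower. Genes annotated to interferon-beta, interferon-gamma or interferon-alpha, given further on, went both ways. Of 57 genes listed without the members, 44 were tested; 44 rose and 0 fell (edgeR quasi-likelihood test, adjusted p under 0.05), beside 46.4% higher over all genes tested, and their median log2 fold change was 1.11, where that of all tested genes was -0.08. The count of 0 lower was also 0 with DESeq2, and no listed gene tested had a log2 fold change under 0.40 (Trim25). The ubiquitin-like modifier Isg15 rose by 2.88 ± 0.07 (SE), the antiviral enzyme Rsad2 by 2.08 ± 0.05, the RNA-degradation activator Oas3 by 1.60 ± 0.04 and the ubiquitin ligase Rnf213 by 1.29 ± 0.03, with adjusted p-values of 6.0e-29 or less. Zbp1, at -0.88, was selected for lying below 0, and the list was drawn without it and with earlier results known. Nothing is therefore read from its lying on the other side of 0 from these 44 genes. Other interferon-linked genes that fell are in the lists below. The shares over all genes tested, 46.4% higher and 50.2% lower, stand beside each of those lists too.

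Genes of interferon reception and signalling that had rows rose as well. Of 32 genes for interferons, their receptors and their signalling, 13 had rows and were tested. Of these, 13 rose and 0 fell (edgeR, and 0 with DESeq2), beside 46.4% higher over all genes tested. Their median log2 fold change was 0.64, and whether they act on the members was not tested. The factor Irf7 rose by 2.06 ± 0.05 (SE, adjusted p = 2.6e-28), Irf9 by 0.84 ± 0.06 and the feedback inhibitor Socs3 by 0.82 ± 0.06. Irf9 is part of the complex that binds elements like that found before Tgtp2. Its level went from 14.9 ± 0.913 to 26.6 ± 0.977 TPM (SD, n = 3 each), while Tgtp2 went from 1.58 ± 0.237 to 0.577 ± 0.205 TPM.

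**Figure D2:**
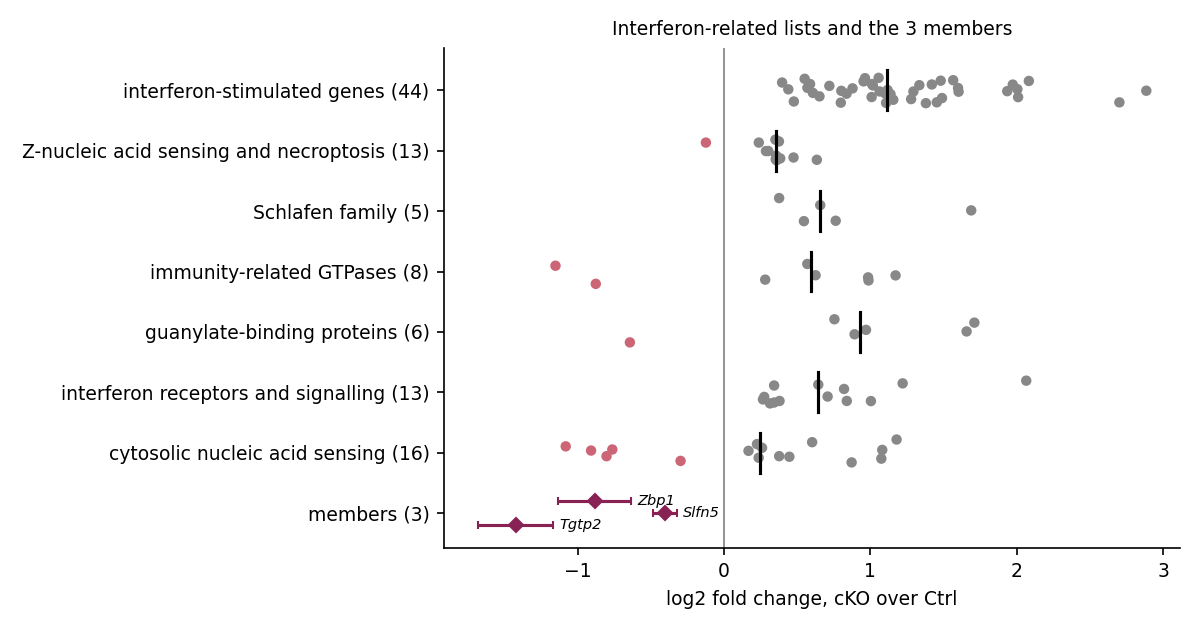
log2 fold change of cKO over Ctrl (x axis) for tested genes of 7 interferon-related lists and for the 3 members (diamonds with SE); black lines are list medians and the number of genes is in brackets. All 44 interferon-stimulated genes and all 5 Schlafen genes lie above 0, the members lie below 0, and red points are other list genes below 0.

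Most genes with a row on a list for the cell death that Zbp1 can start were higher in cKO. Of 25 genes of Z-nucleic acid sensing and necroptosis, 13 had rows and were tested. Of these, 12 rose and 1 fell (median log2 fold change 0.36), beside 46.4% higher and 50.2% lower over all genes tested. Adar, an editing enzyme that also carries a Z-form binding domain and limits Zbp1 activation, rose by 0.63 ± 0.03 (SE; 32.4 to 49.7 TPM; edgeR adjusted p = 5.4e-20). Cflar, which restrains caspase-8, rose by 0.48, the deubiquitinase Cyld by 0.36 and the pore-forming Gsdmd by 0.37. The executioner of necroptosis Mlkl (0.30) and the protease Casp8 (0.29), named after their values were seen, rose too. The phosphatase Pgam5, also named then, was at -0.12 (adjusted p = 0.0233) and lost its call with RLE or upper-quartile scaling, DESeq2 or log2(FPKM + 1), and without Ctrl replicate 1, cKO replicate 1 or cKO replicate 3. Ripk3, the kinase that Zbp1 engages, had no row.

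Slfn5, selected as lower, differed in direction from the other Schlafen genes that had rows. Of 9 other Schlafen genes, 5 had rows and were tested, and those without a row have no value here. Of the tested genes, 5 rose and 0 fell (edgeR, and 0 with DESeq2), beside 46.4% higher over all genes tested. Slfn4 rose by 1.69 ± 0.06 (SE, adjusted p = 7.7e-24), from 11.1 ± 1.03 to 31.5 ± 1.68 TPM. Slfn2, with which quiescence of T cells and monocytes has been linked, rose by 0.76 ± 0.04, from 74.0 to 124 TPM. Slfn3 rose by 0.55 and Slfn9 by 0.38. Reads can be shared among close copies in this family, so single values carry that uncertainty. Slfn5, at 5.63 TPM in Ctrl, was the least abundant of the 6 genes in Ctrl; Slfn8, the next, was at 7.48 TPM.

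The immunity-related GTPases, the family of Tgtp2, went both ways. Of 22 genes listed besides Tgtp2, 6 of 8 tested rose and 2 fell (median log2 fold change 0.60). Irgm1, a regulator of the family that protects the cell's own membranes, rose by 1.17 ± 0.05 (SE, adjusted p = 7.5e-21), and the regulators Irgm2 and Igtp rose by 0.98 ± 0.08 and 0.99 ± 0.09. The family gene 9930111J21Rik1 rose by 0.57 ± 0.08. Like Tgtp2, the effector Iigp1 was lower, at 1.64, 0.68 and 1.28 TPM in Ctrl against 0.56, 0.59 and 0.45 TPM in cKO (log2 fold change -1.15 ± 0.29, adjusted p = 0.00138). Gm4951, a predicted gene of the family, was at -0.88 ± 0.26 (adjusted p = 0.00716). Without Ctrl replicate 1 neither of these passed, and without Ctrl replicate 3, or with DESeq2, 1 of them did.

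Guanylate-binding proteins, larger GTPases that act with this family, also split. Of 14 listed, 5 of 6 tested rose and 1 fell (median log2 fold change 0.93). Gbp3 and Gbp7 rose by 1.71 ± 0.13 and 1.66 ± 0.10 (SE), from 1.95 to 6.27 and from 1.61 to 5.03 TPM. The related Gvin1 and Gvin2 rose by 0.97 and 0.89. Gbp9, named after its value was seen, fell by 0.64 ± 0.12, from 2.29 to 1.43 TPM (edgeR adjusted p = 3.9e-05). Gbp and Gvin genes have near copies between which reads can be split, so single values are uncertain.

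On a list for nucleic acid sensing, 11 of 16 tested genes rose and 5 fell (29 listed, median log2 fold change 0.25). The list holds signalling genes, Toll receptor genes and enzymes besides the cytosolic sensors, to which Zbp1 is related by function. The PYHIN genes Ifi204 and Ifi203 rose by 1.18 ± 0.05 and 1.08 ± 0.06 (SE), Mndal by 1.07 and Ifi207 by 0.60. The 5 that fell were named after their values were seen: Ifi205 (-1.08), Ifi206 (-0.91), Ifi208 (-0.80), Ifi213 (-0.76) and the adaptor Myd88 (-0.30). Without Ctrl replicate 1, 3 of the 16 were called lower. Reads can be shared within the PYHIN family.

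Over the 7 lists together, 105 of 188 genes were tested; 96 rose and 9 fell. Of the 9 that fell, 7 were at 1.15 to 2.29 TPM in Ctrl, a range that holds Tgtp2 (1.58) and lies below Zbp1 (4.74) and Slfn5 (5.63). Another 4 genes in the same range, Ddx60, Gbp3, Gbp7 and Tlr3, rose. Irf4 (0.34 TPM in Ctrl) and Socs1 (0.91 TPM), named after their values were seen, lay below the range and rose too. The median level in Ctrl was 1.91 TPM for the 9 that fell and 15.2 TPM for the 96 that rose. The range was set after the values were seen, and the part of expression level in the direction was not tested.

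**Figure D3:**
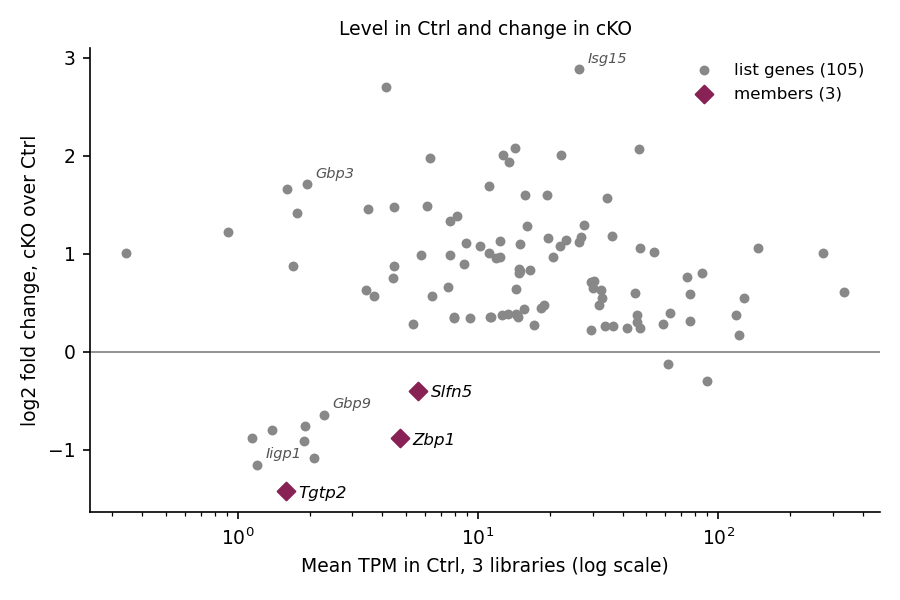
Mean TPM in Ctrl (x axis, log scale) against log2 fold change of cKO over Ctrl (y axis) for 105 tested genes of the interferon-related lists and the 3 members. Most list genes below 0 sit with Tgtp2 between 1.15 and 2.29 TPM, where Gbp3 and 3 others lie above 0.

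Annotations in the deposited table place the members differently. Tgtp2 carried the terms for response to interferon-beta, interferon-gamma and interferon-alpha, whereas Zbp1 and Slfn5 carried none of these terms or that for type I interferon. Of 39 other tested genes annotated to interferon-beta, 29 rose and 10 fell, and among the 10 were Iigp1, Gm4951, Ifi205, Ifi206, Ifi208 and Ifi213. Of 52 others annotated to interferon-gamma, 34 rose and 17 fell, and of 17 others annotated to interferon-alpha, 14 rose and 3 fell. Of 8 tested genes annotated to type I interferon, 8 rose and 0 fell. Over all genes tested, 46.4% were higher and 50.2% lower. Zbp1 was annotated to necroptosis and to cytosolic DNA sensing.

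Genes next to the members were compared because Schlafen genes and immunity-related GTPases lie in clusters. They were taken by position, with a row and within 500 kb of a member. Over all genes tested, 46.4% were called higher and 50.2% lower, so a neighbour with a row was nearly sure to count one way. The counts are a description. Tgtp2 had 7 such neighbours, and all 7 rose, from the ribosome-associated scaffold Rack1 (0.12) to the ubiquitin ligase Trim7 (1.19 ± 0.32, SE, from 0.503 TPM in Ctrl). The nearest, the related GTPase gene 9930111J21Rik2, lay 5.95 kb away and rose by 0.63 ± 0.13. Slfn5 had 9, of which 6 rose and 3 fell. The 5 other Schlafen genes were among those that rose, with Slfn9 only 9.46 kb away, and Nle1, Lig3 and Zfp830 on the other side fell by 0.26, 0.28 and 0.23. Zbp1 had 3, which all fell: Rae1 (-0.08), Rbm38 (-0.25) and Rab22a (-0.65).

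**Figure D4:**
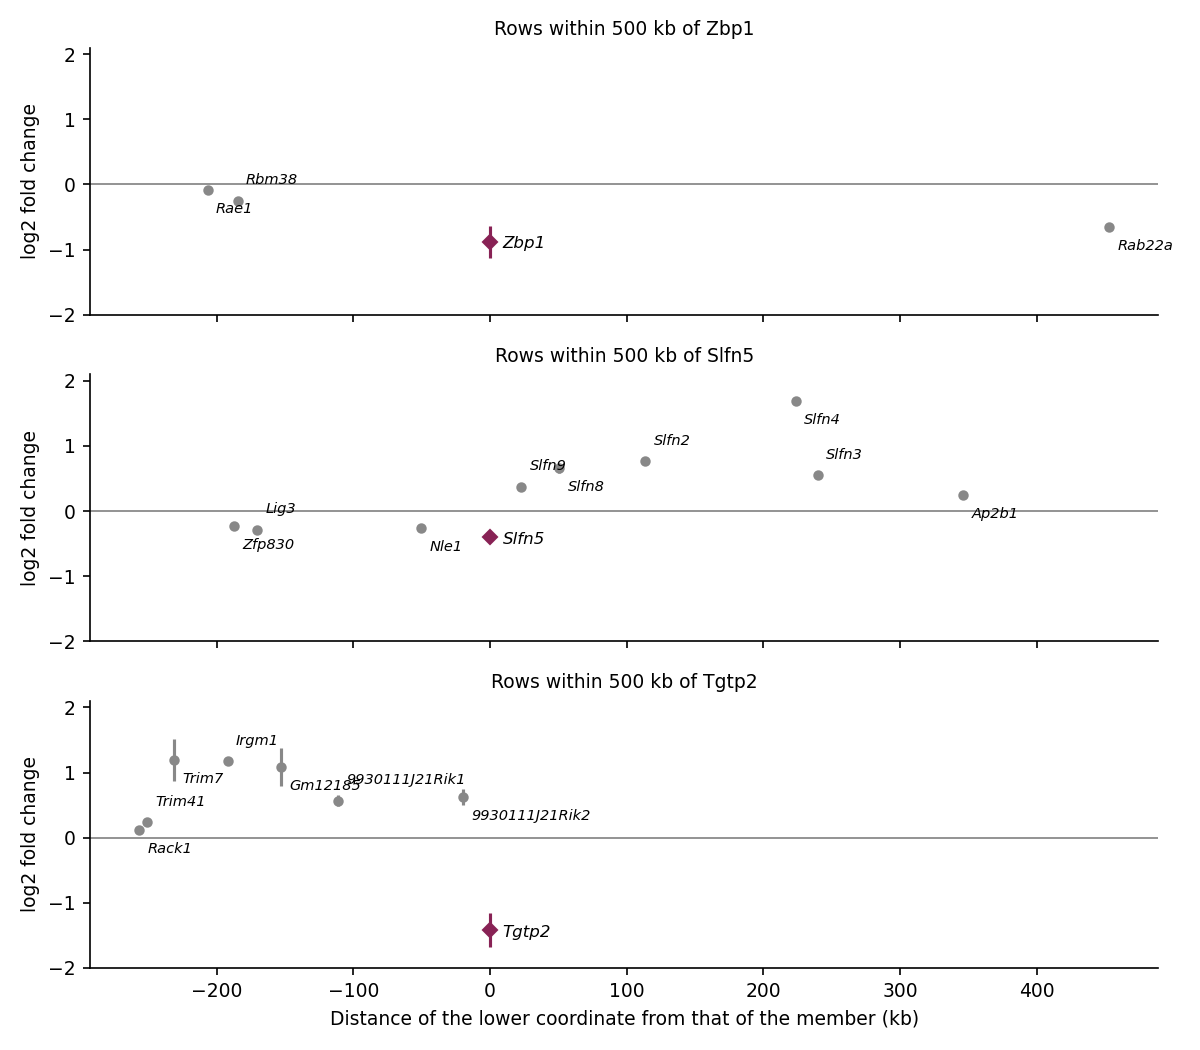
log2 fold change of cKO over Ctrl with SE (y axis) for rows within 500 kb of each member, by distance in kb between lower coordinates (x axis). Tgtp2 lies below 7 neighbours that rose, and Slfn5 between 3 genes that fell on one side and 6 that rose on the other.

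Although the members went against the interferon-stimulated genes between the genotypes, they shared their lowest library with most of them within each genotype. The highest cKO library differed, being cKO replicate 2 for Zbp1 and cKO replicate 1 for Slfn5 and Tgtp2. This was noticed after the values were seen, and is given as a description. In normalized reads, Ctrl replicate 2 was the lowest Ctrl library and cKO replicate 3 the lowest cKO library for Zbp1, Slfn5 and Tgtp2 alike. Ctrl replicate 2 was the lowest Ctrl library for 39 of the 44 interferon-stimulated genes (88.6%), beside 30.8% of all 4641 genes tested. For cKO replicate 3 the corresponding figures were 34 of 44 genes (77.3%) and 31.2%, and both held for 32 of 44 (72.7%) and for 10.2% of all. These genes share the same 6 libraries and are not independent observations.

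The sizes of these within-group differences are given side by side, with no test. On the log2(normalized count + 1) scale, Ctrl replicate 2 was below its group mean by a median of 0.13 over the 44 genes, where Zbp1 stood at -0.54, Slfn5 at -0.16 and Tgtp2 at -0.24. In cKO replicate 3 the median of the 44 genes was -0.06, beside -0.69 for Zbp1, -0.11 for Slfn5 and -0.60 for Tgtp2. Slfn5 in Ctrl replicate 2 lay inside the interquartile range of the 44 genes (-0.18 to -0.05) and in cKO replicate 3 just below it (-0.10 to -0.03). The spread of Tgtp2 among Ctrl libraries, a coefficient of variation of 14.8%, was close to the 15.0% that counting alone gives. The median over all tested genes was within 0.01 of 0 in each library. Without Ctrl replicate 2 the log2 fold changes were -1.11 for Zbp1, -0.48 for Slfn5 and -1.54 for Tgtp2, and without cKO replicate 3 they were -0.60, -0.35 and -1.17.

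**Figure D5:**
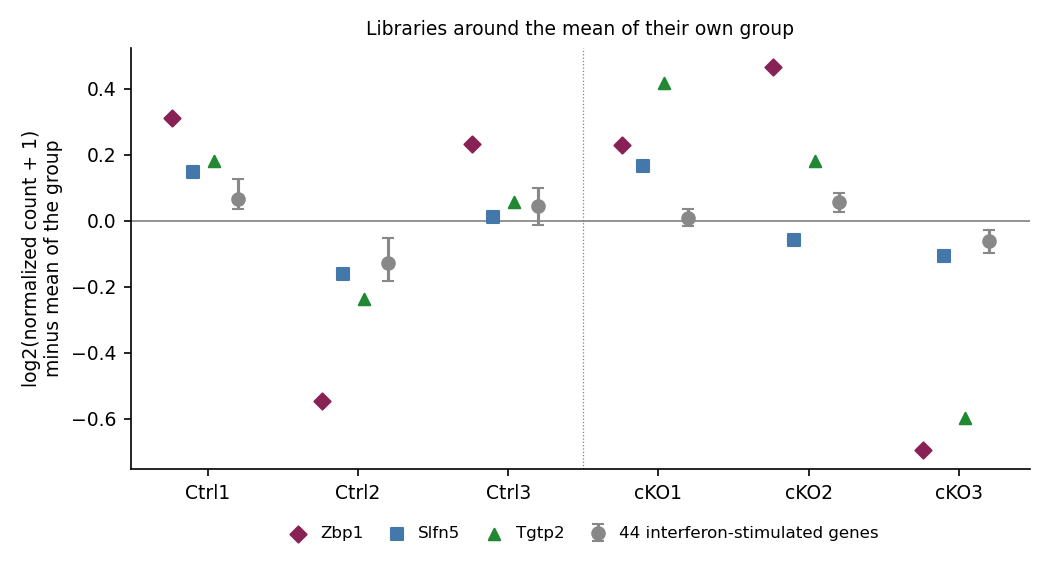
log2(normalized count + 1) minus the mean of the library's own group (y axis) in each of the 6 libraries, for the 3 members and for 44 interferon-stimulated genes (grey, median with interquartile range). All 3 members and the grey medians are below 0 in Ctrl2 (grey -0.13) and cKO3 (grey -0.06).

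The genes with patterns most like each member were found by the root mean square difference between log2(normalized count + 1) profiles over the 6 libraries, each centred on its own mean, among 4549 candidates with a mean of at least 20 normalized reads. For Zbp1 they were Ifi206 (a difference of 0.26), the GTPase Iigp1 (0.28) and Fgl2, a fibrinogen-like protein (0.29). For Tgtp2 they were Cmklr1, the chemerin receptor (0.18), Ifi206 (0.25) and the membrane protein gene Ms4a6b (0.28). For Slfn5 they were the interleukin-12 receptor chain Il12rb2 (0.07), the cardiolipin-synthesis enzyme Tamm41 (0.07) and the surface receptor Cd72 (0.08). Ifi206 was near Zbp1 and Tgtp2 alike, and Zbp1 and Tgtp2 differed from each other by 0.34. Slfn5 was further from both, at 0.45 from Zbp1 and 0.57 from Tgtp2. The counts of Cmklr1 were close to those of Tgtp2 throughout, at 42.4, 28.4 and 40.2 normalized reads in Ctrl against 15.9, 13.7 and 10.8 in cKO. The distance includes the difference between the genotypes on which the members were selected. The nearest of many candidates is close by construction, so these matches and distances are a description only.

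Markers of other cells were read beside the members, since lymphocytes and other macrophages also express them. Of 16 markers of T and NK cells, 6 of B cells, 9 of neutrophils and 9 of neurons, 0 had a row, so their levels are not known here. Over all genes tested, 50.2% were called lower and 46.4% higher, so a tested marker was nearly sure to count one way. Of 8 markers of border-associated macrophages 3 had rows (Mrc1, Ms4a7 and Folr2), all 3 fell, and their summed level was 49.9 to 62.0 TPM in Ctrl and 27.4 to 32.0 TPM in cKO. Of 8 monocyte markers 3 had rows, of which S100a4 and Ms4a4c fell and Ly6c2, too low to be tested, was listed at 0 in all Ctrl libraries and at 0.55 to 0.71 TPM in cKO; the sum, nearly all of it S100a4, was 2763 to 2911 TPM in Ctrl and 2212 to 2465 TPM in cKO. Among 12 microglial markers 4 had rows, Cx3cr1, Csf1r, Trem2 and Fcrls; all 4 fell, with a sum of 366 to 374 TPM in Ctrl and 327 to 340 TPM in cKO, while P2ry12 and Tmem119 were among those without a row. In libraries made from many cells, fewer cells of a type and less RNA per cell cannot be told apart, and the part of these markers in the lower values of Zbp1, Slfn5 and Tgtp2 was not tested. Of the remaining markers, 1 of 10 for dendritic cells (Bst2, also interferon-induced, 265 to 277 TPM in Ctrl and 531 to 563 TPM in cKO), 1 of 9 for oligodendrocytes (Cnp), 1 of 9 for vessel cells (Pecam1, at most 0.78 TPM) and 1 of 8 for astrocytes (Aldh1l1, at most 0.42 TPM) had rows.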

How the data were processed

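RNA-seq of 6 libraries (3 Ctrl, 3 cKO) was analysed, with groups from the genotype labels. The submitters' processing notes name mm39, Bowtie2 2.4.5 and DESeq2 1.34.0, and no source used here names the read counter. The authors deposited, per the file headers, expected counts (11.1% not whole, tolerance 1e-06), FPKM, TPM, normalized counts and, for each gene, a p-value, a q-value and a log2 fold change. Expected counts were deposited without normalization, and FPKM and TPM are scaled to length and library by the authors. Each deposited normalized count (a signal adjusted for depth) was the rounded-up count over the size factor of its library (0.987 to 1.02) in 100% of entries. The authors' log2 values compare cKO with Ctrl. The authors' q-values matched a Benjamini-Hochberg adjustment of their p-values over 15835 genes. Their 8 columns of averages were not used. The rows are the called genes alone, so normalization and dispersions here rest on genes selected on the comparison.

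Counts were rounded and fitted over the whole table with edgeR 4.0.16 in R 4.3.3 (TMM, filterByExpr, quasi-likelihood F-test; 4641 genes kept), and p-values were adjusted by Benjamini-Hochberg over 15835 genes, threshold 0.05. The SE of a log2 fold change was its size over the root of the F statistic. The 3 members and the 7 lists were chosen with earlier results of these data known. Named genes are, per list, the 4 with the smallest p among those called, those called lower in 3 lists (interferon-stimulated, Schlafen and immunity-related GTPase), and the 3 most alike to each member; 1 gene that this rule names is not reported here; others are marked as named after their values were seen, or taken by position. Alternatives were RLE, upper-quartile, library-size and authors' scaling, 2 other filters, DESeq2 1.42.0, limma 3.58.1 (voom, and trend on log2(FPKM + 1) or, for the members, log2(FPKM + 0.1)), a replicate block, robust dispersion, adjustment over the rows alone, counts rounded up, and each library left out. Motifs, words and figures were made with Python 3.11.15, pandas 2.3.3, NumPy 2.4.6, SciPy 1.17.1 and matplotlib 3.10.9. Poisson intervals cover counting error only.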

Additional observations from a re-analysis of the deposited data

How the results depend on the processing

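Over the processing alternatives, 348 of 361 recomputed values stayed within 1.5 times a count or within 1 SD between replicates of a log2 fold change. No member changed sign. All rows were called by the authors beforehand, which limits how far the counts can move. The SD of Zbp1 was 0.57, so its move from -0.88 to -0.53 counted as within 1 SD. The 348 values are therefore a description. Leaving out 1 library at a time, Zbp1 ranged from -1.14 to -0.60, Slfn5 from -0.49 to -0.33 and Tgtp2 from -1.65 to -1.17. On the log2(FPKM + 1) scale, which compresses low values, Tgtp2 was at -0.56 and Zbp1 at -0.53; with a pseudocount of 0.1 they were at -1.27 and -0.73. DESeq2 called 1510 genes lower, beside 2332 in the edgeR fit, and put 58.9% of calls higher, beside 48.0%. The lower gene of the Z-nucleic acid list (1 in the edgeR fit) became 0 with RLE, upper-quartile, DESeq2 and log2(FPKM + 1), and 0 to 1 with a library left out. The 2 lower immunity-related GTPases became 1 with DESeq2 and 0 to 2 with a library left out. With a library left out, the 5 lower genes of the nucleic acid sensing list became 3 to 5. The cause was not tested. Genes called numbered 2153 to 2159 higher and 2126 to 2246 lower with a library left out.

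Replicate numbers were shared by both groups. Same-numbered libraries deviated together by correlations of 0.05, -0.02 and -0.06, beside -0.09 to 0.12 for the other pairs. These correlations cannot show whether same-numbered libraries shared more than a number. With a replicate block 2155 genes were higher and 2296 lower, and Zbp1, Slfn5 and Tgtp2 stood at -0.88, -0.40 and -1.42. Depth limits Zbp1 and Tgtp2 most, with 10 to 59 reads per library.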
